A study of Mus musculus with 4 samples.

Results

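The genes described here were 52 genes of the G2 phase and mitosis, taken by symbol from the 55357 gene rows of the deposited single-cell count matrices, in which all 52 were found. They were read in lineage-negative Sca-1+ Kit+ (LSK) cells, the bone marrow fraction that holds haematopoietic stem cells and multipotent progenitors, sorted from wild-type mice. Vehicle-treated mice gave the control libraries and mice given Yoda1 intraperitoneally for 2 weeks gave the treated ones, with 2 libraries per group (control 1 and 2, Yoda1 1 and 2). Yoda1 is a small-molecule agonist of the mechanosensitive cation channel Piezo1, and the series asked what activating that channel does to LSK cells and to stem cell proliferation. The labels give no strain, sex or age, name 2 different capture systems (Singleron and 10x Genomics), and do not tie a library to a mouse, so a p-value here speaks only of how far the 4 libraries vary.

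Cells enter mitosis when CDK1 bound to B-type cyclins is switched on by CDC25 phosphatases. Aurora kinases and the spindle checkpoint then guide chromosomes onto a spindle built by kinesins and microtubule-binding proteins, condensin and topoisomerase II shape the chromosomes, and the anaphase-promoting complex with CDC20 ends mitosis by destroying cyclin B. Many of these genes are transcribed together late in the cell cycle through promoters that carry CCAAT boxes, which NF-Y binds, and a cell cycle homology region (CHR), which the MuvB complex binds. Most long-term stem cells are quiescent, whereas progenitors divide often. Megakaryocyte precursors later stop dividing their cytoplasm while continuing to replicate DNA.

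Promoter sequences show what the members share beyond their function. The 250 bases before the RefSeq start sites (GRCm38.p6) were read for 45 of the 52 genes in 49 windows, and 2 motifs were searched on both strands: TTTGAA, the CHR core, and CCAAT. The former lay in 40.8% of the members' windows and in 16% of all 32851 promoter windows of the same length. The CCAAT box lay in 77.6% against 33.8% (68.6% of S phase gene windows), and at least 2 copies of it in 57.1% against 10.1%. Both motifs were in 36.7% of the members' windows and 5.55% of all windows, and in 11.4% of the windows of the 43 S phase genes used for comparison, of which 31 had a sequence. The trait was not limited to the members: in the windows of 50 other mitosis genes, 41 of them with a sequence, TTTGAA lay in 36.4%, the CCAAT box in 59.1% and both in 29.5%. At least 2 copies of the CCAAT box lay in 25.0% of those windows. They lay in a larger share of the S phase gene windows, 14 of 35, so repeated CCAAT boxes were not limited to mitosis genes. The 17 genes with both were Anp32e, Ccnb2, Cdc20, Cdk1, Ckap2, Ckap2l, Ckap5, Cks1b, Ect2, Hmgb2, Kif11, Lbr, Mki67, Ncapd2, Top2a, Tubb4b and Ube2c. Those with the highest mean counts are printed here, except Ube2c, whose window reaches past the gene start in the other annotation used. Ect2 and Ckap2l, chosen after their values were seen, follow because they differed most between lineages. Capitals mark either motif on either strand. The sequences run 5′ to 3′ on the gene's strand, at chr8:57511593-57511842 (plus strand) for Hmgb2, chr2:25224703-25224952 (minus) for Tubb4b, chr11:99024190-99024439 (minus) for Top2a, chr3:27153879-27154128 (minus) for Ect2 and chr2:129297213-129297462 (minus) for Ckap2l.
Hmgb2: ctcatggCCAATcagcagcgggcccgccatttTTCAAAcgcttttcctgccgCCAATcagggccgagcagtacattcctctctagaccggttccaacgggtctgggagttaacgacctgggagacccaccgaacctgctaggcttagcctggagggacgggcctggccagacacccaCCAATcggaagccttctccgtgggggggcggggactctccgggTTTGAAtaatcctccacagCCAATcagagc
Tubb4b: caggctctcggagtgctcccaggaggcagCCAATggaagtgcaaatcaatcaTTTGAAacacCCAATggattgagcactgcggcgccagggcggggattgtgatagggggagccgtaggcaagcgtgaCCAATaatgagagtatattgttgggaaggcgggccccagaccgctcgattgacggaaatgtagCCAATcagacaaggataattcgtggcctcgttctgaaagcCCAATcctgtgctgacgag
Top2a: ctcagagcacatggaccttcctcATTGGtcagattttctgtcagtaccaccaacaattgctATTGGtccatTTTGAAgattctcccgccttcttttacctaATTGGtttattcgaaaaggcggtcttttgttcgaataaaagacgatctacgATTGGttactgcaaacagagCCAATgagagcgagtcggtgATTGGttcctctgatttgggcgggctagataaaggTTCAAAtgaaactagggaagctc
Ect2: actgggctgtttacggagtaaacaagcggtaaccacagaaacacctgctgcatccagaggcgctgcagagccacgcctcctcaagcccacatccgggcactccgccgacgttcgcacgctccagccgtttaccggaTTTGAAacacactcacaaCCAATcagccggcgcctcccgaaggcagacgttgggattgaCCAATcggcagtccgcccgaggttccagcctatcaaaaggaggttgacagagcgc
Ckap2l: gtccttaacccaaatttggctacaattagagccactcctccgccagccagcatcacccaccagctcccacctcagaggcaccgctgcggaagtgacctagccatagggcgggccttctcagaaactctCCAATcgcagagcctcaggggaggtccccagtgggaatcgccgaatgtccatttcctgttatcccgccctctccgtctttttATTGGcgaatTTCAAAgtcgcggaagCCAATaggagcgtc
The nearest TTTGAA stood 30 bases before the start in Hmgb2 and in Ckap2l, 23 bases in Top2a, 114 in Ect2 and 198 in Tubb4b. Tubb4b held 5 CCAAT boxes and Top2a 6, against 2 in Ect2. A match is a description of the letters and shows no binding.

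The libraries held 8236 to 10168 barcodes. A cell was kept with 500 or more genes, 1000 or more UMIs (unique molecular identifiers, 1 per captured transcript) and no more than 10% mitochondrial UMIs, which left 7620, 7822, 9122 and 9756 cells and 89058521 to 110493533 UMIs per library. Yoda1 2 stood apart: its median depth was 7311 UMIs per cell against 9410.5 to 11220 in the other libraries, and 38.16% of its cells passed the stem gate defined below against 11.09% to 13.41%. The LSK markers Kit and Ly6a were present in every library, at 98.4 to 156 and 97.9 to 262 CPM (UMIs per 1000000 UMIs of the same cells). Summed CPM of 5 T and NK cell markers ran from 255 to 442, of 6 mature neutrophil markers from 53.6 to 208, of 5 B cell markers from 38.5 to 114, of 5 late erythroid markers from 25.6 to 124, of 5 stromal and endothelial markers from 43.7 to 56.8, and of 4 macrophage markers from 13.5 to 25.2. Single genes made up most of some sums. Nkg7 measured 251 to 439 CPM, while Cd3e, Cd3d, Cd3g and Klrb1c each lay at or below 1.80. Pecam1 measured 43.5 to 56.4 CPM, and Cdh5, Col1a1, Cxcl12 and Lepr each lay at or below 0.320. Among the B cell markers Cd79b measured 38.0 to 52.9 CPM. Cd79a measured 4.24, 27.2, 0.317 and 26.6 CPM in control 1, control 2, Yoda1 1 and Yoda1 2. Vpreb3 measured 4.13, 32.0, 0.136 and 23.3 CPM in the same order, so both genes were higher in control 2 and Yoda1 2. The part of any such cells in the results was not tested. Between 14 and 30 barcodes were shared by any pair of libraries.

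Levels are given as CPM over all kept cells, are not corrected for gene length, and are compared between samples rather than between genes. In summed counts fewer cells in mitosis and less RNA per cell cannot be told apart. The 52 genes together made up 77.6, 72.7, 79.7 and 67.6 of every 10000 UMIs in control 1, control 2, Yoda1 1 and Yoda1 2. Their mean CPM ran from 8.14 for Gtse1, which regulates microtubules in G2, to 1387 for Hmgb2, a DNA-bending chromatin protein that supplied 18.7% of the members' UMIs. In 30 of the 52 genes the lowest value was that of Yoda1 2. The share of all genes with their lowest value there is not given here, so nothing is read from this count.

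Among the genes that start mitosis, Cks2, a small subunit that binds cyclin-dependent kinases, measured 389, 427, 367 and 293 CPM in control 1, control 2, Yoda1 1 and Yoda1 2. Its relative Cks1b measured 264, 263, 274 and 215 CPM, and Cdk1, the kinase itself, 129, 138, 140 and 126 CPM. Cks2 was lower in both treated libraries than in both controls, while the groups overlapped for Cks1b and Cdk1. Ccnb2 (a cyclin B), Cdca3 (which promotes destruction of the Cdk1 inhibitor WEE1) and the phosphatase gene Cdc25c overlapped too, the last at only 13.5 to 17.8 CPM. Of the kinases, Aurkb, the catalytic subunit of the chromosomal passenger complex, measured 80.1, 79.1, 86.7 and 63.0 CPM. Aurka, the centrosomal Aurora kinase, measured 43.3, 39.5, 46.0 and 34.9 CPM, and the checkpoint kinase gene Bub1 31.8, 32.0, 36.6 and 29.3 CPM. In these 3 genes Yoda1 1 was the highest library and Yoda1 2 the lowest, so the groups overlapped. The other members of this role, the checkpoint kinase gene Ttk and the centrosomal kinase gene Nek2, had group ranges that overlapped as well.

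For the exit from mitosis, Ube2c, the ubiquitin-conjugating enzyme of the anaphase-promoting complex, measured 305, 286, 293 and 229 CPM, and its activator Cdc20 98.6, 93.4, 97.0 and 81.3 CPM. G2e3, a ubiquitin ligase gene expressed in G2, measured 27.6, 28.9, 31.1 and 32.6 CPM and lay above both controls in both treated libraries. At the kinetochore and centromere, Birc5, the survivin subunit of the passenger complex, measured 213, 218, 239 and 183 CPM. Cdca8, which encodes the borealin subunit of that complex, measured 196, 178, 208 and 152 CPM. The centromeric histone gene Cenpa measured 201, 193, 188 and 135 CPM and was lower in both treated libraries. Of the other kinetochore genes (Cenpe, Cenpf, Nuf2, Ndc80 and the CENP-A chaperone gene Hjurp), Ndc80 alone had treated values, of 46.0 and 46.8 CPM, above both controls, of 45.6 and 45.2 CPM.

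Among 18 motor and spindle genes, Tubb4b, a beta tubulin, measured 518, 503, 573 and 460 CPM. Jpt1, a microtubule-associated protein gene, measured 372, 307, 345 and 288 CPM, and Nusap1, which bundles spindle microtubules, 106, 110, 120 and 118 CPM. Nusap1 alone of the 18 lay above both controls in both treated libraries, and none lay below. The cytokinesis genes Anln (the actin-ring scaffold anillin) and Ect2 (the exchange factor that activates RhoA at the cleavage furrow) measured 25.9, 21.0, 24.2 and 18.1 CPM, and 22, 21.6, 23.0 and 21.4 CPM. Of 10 genes of chromosome structure and the nuclear envelope, Hmgb2 measured 1412, 1343, 1528 and 1264 CPM, Top2a (topoisomerase II alpha) 453, 362, 474 and 403 CPM, and Smc4 (a condensin ATPase) 287, 274, 300 and 269 CPM. All of these overlapped between groups, and in this role Tmpo (a lamin-associated protein) and Pimreg (a chromatin-bound mitotic regulator) lay above both controls. In all, 5 members were above and 2 below both controls in both treated libraries, against 9.4% and 9.95% of the 18182 genes tested, so the count above was near that background and the count below was under it.

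**Figure D1:**
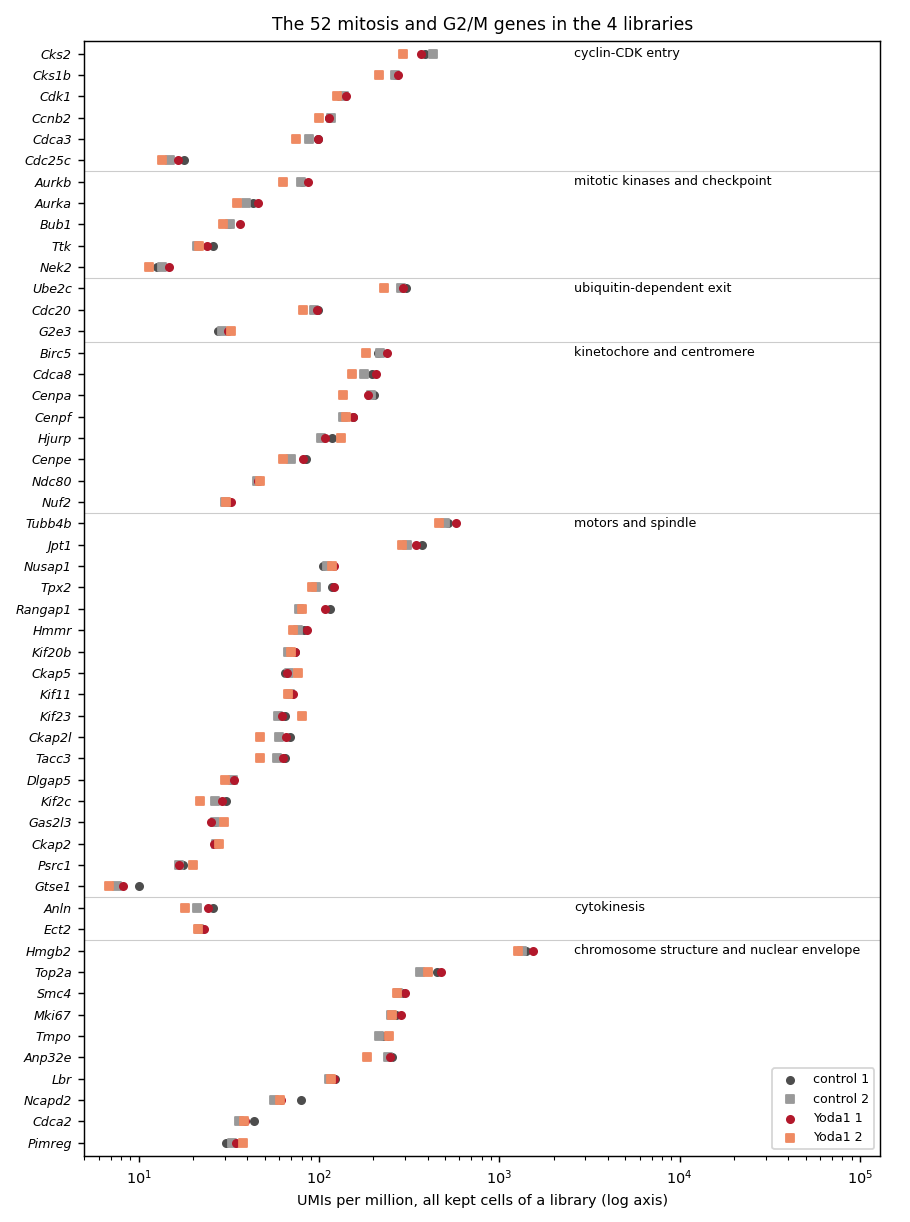
Level of each of the 52 genes in CPM (log axis) over all kept cells of a library, 1 point per library, grouped by role and ordered by mean within a role. The points of most genes overlap between control and Yoda1, and Hmgb2 stands highest, at 1264 to 1528.

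Whether the members mark dividing cells was checked with 50 other mitosis genes that are not members, after each cell had been thinned to 3000 UMIs. Cells with at least 3 UMIs of those genes held 94.8, 102.1, 97.9 and 110.4 member UMIs per 10000, and cells with none held 24.5, 21.4, 23.4 and 18.7. The 50 genes and the members share libraries and cell depth, so the ratios are given as descriptions. Median depth differed between these cells too, at 12137.5 to 14912 UMIs in the first and 5998.5 to 6472 in the second. Over the 52 genes the ratio of the CPM in the first cells to that in the second (geometric mean over libraries) ran from 1.44 to 34.0 with a median of 8.17. It was 10 or more in 20 genes and 30 or more in Kif2c, a microtubule-depolymerizing kinesin, Cdc25c, and Hmmr, a spindle assembly factor. These high ratios are imprecise. In the second cells Cdc25c had only 5 to 10 UMIs per library and Kif2c 11 to 19. Their ratios by library ran from 18.2 to 56.7 and from 17.0 to 69.3. At the other end the ratio was under 3 in 8 genes, among them the lamin B receptor gene Lbr at 1.44, Jpt1 at 1.94, Tmpo at 2.04, the histone chaperone gene Anp32e at 2.06 and Hjurp at 2.23. The span between members was wide: in cells with no UMI of the other mitosis genes Lbr measured 95.6, 86.9, 91.6 and 88.5 CPM, and Kif2c 2.38, 1.08, 1.30 and 0.598 CPM.

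Lineages were set by marker gates on raw UMIs, none of which uses a member. The stem gate needed at least 1 UMI of Hlf and 1 of Procr or Mecom. Cells outside it were assigned where exactly 1 other gate passed: Flt3 with Satb1 and no Dntt or Il7r (Flt3 gate), Dntt or Il7r (lymphoid), Irf8 with Ly86 (monocyte), Mpo with Elane, Prtn3 or Ctsg (granulocyte), Pf4 with Itga2b (megakaryocyte), Klf1 with Car1 (erythroid) and Cpa3 with Ms4a2 (mast cell). A B-lineage gate on Ebf1 held at most 9 cells in a library and was not tested. The other 8 gates held 60 to 3723 cells per library, with 845, 1038, 1223 and 3723 in the stem gate but 1036, 555, 771 and 103 in the erythroid gate. Outside the stem gate, cells that passed several gates made up 24.74%, 20.25%, 22.59% and 4.592% of kept cells. Cells that passed no gate made up 18.04%, 19.83%, 25.05% and 26.22%. Both kinds were left unassigned and count among the cells outside each gate. A gate is a range of marker counts, so depth affects which cells pass it, in a direction that differs between gates. Median depth was 6530 to 7269 UMIs in the Flt3 gate and 13878 to 16230 in the granulocyte gate. It was 14979.5 to 17181 in the unassigned cells that passed several gates. Each comparison was therefore repeated with gates set on counts thinned to 3000 UMIs.

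The megakaryocyte and erythroid gates held more member RNA than the cells outside them in every library. Members made up 89.9, 92.8, 97.6 and 88.4 of 10000 UMIs in the megakaryocyte gate against 76.9, 71.1, 78.5 and 66.9 outside it. In the erythroid gate the values were 81.5, 80.9, 91.0 and 99.7 against 76.9, 71.8, 78.3 and 66.9. The Flt3 gate held less in every library, at 49.3, 44.8, 65.6 and 52.6 against 78.1, 73.4, 80.0 and 68.3. Each of these 3 differences went the same way in all 4 libraries, for which an exact sign-flip permutation test gives p = 0.125, the smallest that 4 libraries allow (0.333 after Benjamini-Hochberg adjustment over 8 gates). In the stem gate members made up 79.8, 67.3, 77.9 and 64.6 against 77.3, 73.4, 79.9 and 69.8 outside, lower in 3 of 4 libraries (exact p = 0.375, two-sided). With stem cells gated on thinned counts the values were 69.6, 44.0, 61.2 and 50.7 against 77.9, 73.6, 80.3 and 70.6. They were lower in all 4 (exact sign-flip permutation p = 0.125, 0.2 after Benjamini-Hochberg adjustment over 8 gates). That gate held 223, 334, 440 and 1469 cells, at median depths of 5714, 5624, 5318.5 and 6003 UMIs. On raw counts the stem gate had median depths of 11221, 7781, 7998 and 7965, so the thinned gate held shallower cells. Repeats of the summed level with thinned gates were chosen after the data were seen. In the Flt3 gate on thinned counts they were 54.7, 64.9, 74.6 and 55.8 against 78.2, 73.0, 79.9 and 68.6, and the mean difference from the cells outside went from -21.9 to -12.4. The monocyte gate was the most variable, at 117.9, 70.8, 72.4 and 89.2, with only 60 to 139 cells per library. With monocytes gated on thinned counts the values were 96.2, 80.3, 86.6 and 83.2 against 77.3, 72.6, 79.5 and 67.9 outside. They were higher in all 4 libraries (exact sign-flip permutation p = 0.125, 0.2 after the same adjustment).

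**Figure D2:**
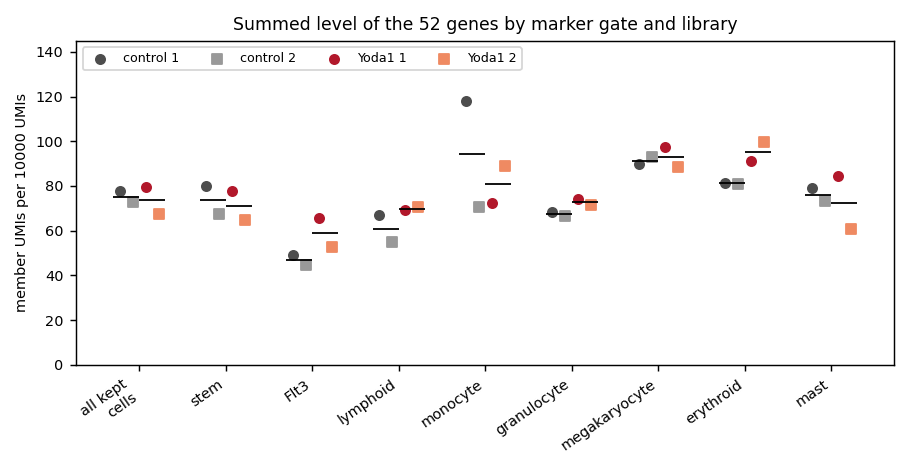
Summed UMIs of the 52 genes per 10000 UMIs in all kept cells and in each marker gate, 1 point per library, with a black line at the mean of each group of 2. With these gates on raw counts the Flt3 gate has the lowest mean, at 44.8 to 65.6 (with gates on thinned counts the stem gate has, at 44.0 to 69.6), and the 4 megakaryocyte points lie between 88.4 and 97.6.

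Single genes were tested between each gate and the cells outside it on summed counts, with the library as a block (edgeR quasi-likelihood test, Benjamini-Hochberg adjusted p under 0.05, 4 libraries). In the megakaryocyte gate 37 members rose and 2 fell, while 16.3% and 22.3% of the 17265 genes tested did, and the median log2 change was 0.37 against -0.04 over all genes. Of the 50 other mitosis genes 36 rose and 1 fell. In the erythroid gate 25 rose and 3 fell (27.2% and 32.5% of all genes), with a median of 0.22 against -0.07 over all genes. In the Flt3 gate none rose and 47 fell (5.93% and 12.6% of genes), with a median of -0.64 against -0.02. In the granulocyte gate 14 rose and 6 fell (21.1% and 23.2%), so the higher count was close to the background and the lower count below it. The monocyte gate had 10 higher and none lower (8.64% and 7.92%), the lymphoid gate 1 and 18 (12.7% and 17.3%), and the mast cell gate 1 and 8 (7.26% and 12.6%).

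The counts of the last 4 gates changed as single libraries were left out, which also leaves fewer sums in each fit. The share of all genes called in those smaller fits is not given here, so nothing is read about the members from their counts. Without control 2 the granulocyte gate had 7 members higher. The lymphoid count of 18 lower became 3, 2 and 4 without control 1, control 2 or Yoda1 1 and 42 without Yoda1 2. The monocyte count became 3, 6, 22 and 4 as the libraries were left out in the same order, and the mast count of 8 lower became 2, 3, 6 and 12. Gating on thinned counts gave 22 higher and 5 lower in the granulocyte gate (23.1% and 25% of genes). It gave 38 higher and none lower in the monocyte gate (11.4% and 12.4%), 7 and 4 in the lymphoid gate (14.6% and 18.8%), and 8 and 1 in the mast cell gate (7.64% and 11.1%). When gated on thinned counts the megakaryocyte gate still had 32 members higher and 2 lower (16.8% and 22.2% of genes), and the Flt3 gate none higher and 40 lower (7.67% and 14.4%). Leaving out Yoda1 2 raised the small counts of lower members to 4 in the megakaryocyte gate and 5 in the erythroid gate.

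**Figure D3:**
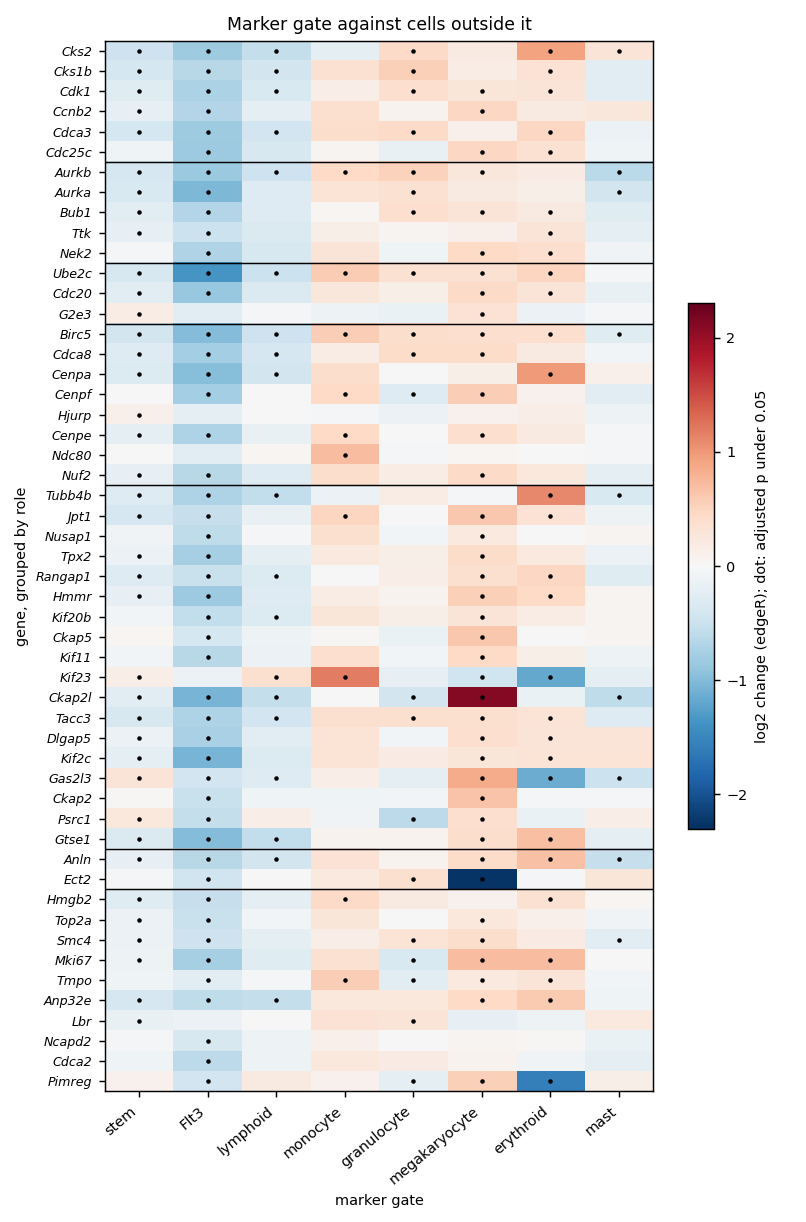
Log2 change of each member between the cells of a marker gate and the cells outside it (edgeR, library as block; red higher, blue lower), with a dot where the adjusted p is under 0.05. The Flt3 column is blue throughout, and in the megakaryocyte column 48 of 52 genes are above 0, with Ect2 at -2.25 and Kif23 at -0.45 below.

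Within the megakaryocyte gate 2 members moved far from the others and in opposite directions. Ect2 (chr3:27097222-27153878, minus strand) measured 4.0, 4.42, 6.62 and 4.84 CPM there and 23.0, 22.9, 24.1 and 22 CPM outside, a log2 change of -2.25 (SE 0.13, adjusted p = 6.48e-10). Every megakaryocyte value lay below every value of the other 7 gates, the lowest of which was 11.7 CPM in the Flt3 gate of control 1. Ckap2l (chr2:129268210-129297212, minus strand), which encodes a spindle protein, measured 238, 237, 235 and 183 CPM there against 59.5, 45.6, 54.3 and 42.5 outside, a log2 change of 2.12 (SE 0.08, adjusted p = 1.95e-12). Its highest value in any other gate was 104 CPM, in the monocyte gate of control 1. Over the alternatives run the change ran from -2.57 to -2.16 for Ect2 and from 1.87 to 2.20 for Ckap2l. The gene Gm14024 overlaps Ckap2l on the other strand and Gm25152 overlaps Ect2, and the sources used here do not say whether the counting used strand.

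Both differences held among cells with at least 3 UMIs of the other mitosis genes, an alternative chosen after the data were seen. Ect2 measured 5.13, 5.56, 8.15 and 7.25 CPM in such cells of the megakaryocyte gate (log2 change -2.35, SE 0.13, adjusted p = 3.04e-10), and 21.5 to 60.2 CPM in such cells of the other gates. Ckap2l measured 299, 310, 277 and 232 CPM (log2 change 1.87, SE 0.08, adjusted p = 5.49e-12). In cells with no UMI of those genes Ckap2l still measured 67.3, 69.3, 64.9 and 80.3 CPM in the megakaryocyte gate, from 23 to 46 UMIs per library, against at most 10.5 CPM in such cells of any other gate. Anln, the other cytokinesis member, rose in the megakaryocyte gate, to 28.0, 30.6, 34.7 and 26.6 CPM against 25.8, 20.2, 23.5 and 17.9 outside (log2 change 0.42, SE 0.10, adjusted p = 0.00258). Of the partners of Ect2 at the central spindle, Racgap1 (log2 change 0.37, adjusted p = 8.34e-04) and Prc1 (0.56, adjusted p = 6.18e-06) rose there, and Kif23, the motor subunit bound to Racgap1, fell (log2 change -0.45, SE 0.09, adjusted p = 7.68e-04). Gas2l3, which links actin and microtubules in late mitosis, rose by 0.86 (SE 0.08, adjusted p = 2.32e-07), and Cenpf, a kinetochore protein gene, by 0.56 (SE 0.07, adjusted p = 4.10e-06).

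In the erythroid gate 3 members fell while most called members rose. Pimreg (chr11:72042032-72047370, plus strand) measured 9.78, 10.2, 14 and 7.16 CPM there against 34.6, 35.1, 37.3 and 38.3 outside, a log2 change of -1.58 (SE 0.11, adjusted p = 2.27e-07). Kif23 (chr9:61915905-61946774, minus) measured 27.4, 23.1, 29.1 and 33.3 CPM against 72.3, 62.8, 66.0 and 81.7, a change of -1.18 (SE 0.07, adjusted p = 1.22e-07). Gas2l3 (chr10:89408823-89443967, minus) measured 11.5, 11.5, 11.3 and 13.8 CPM against 29.6, 28.1, 27.0 and 29.9, a change of -1.14 (SE 0.08, adjusted p = 4.30e-07). For none of the 3 did the gate overlap with the cells outside it in any library. They fell in dividing erythroid cells as well: among cells with at least 3 other-mitosis UMIs the changes were -1.88, -1.33 and -1.34, and over that alternative and the others Pimreg ran from -1.88 to -1.52.

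Of the members that rose in the erythroid gate, 3 abundant ones changed most. Tubb4b (chr2:25222160-25224702, minus) measured 815, 857, 968 and 1044.5 CPM against 460, 465, 525 and 447 outside, a log2 change of 1.11 (SE 0.08, adjusted p = 3.17e-07). Cenpa measured 274, 281, 293 and 346 CPM against 187, 184, 175 and 130, a change of 0.97 (SE 0.13, adjusted p = 4.30e-05). Cks2 measured 505, 617, 566 and 719 CPM against 367, 407, 343 and 284, a change of 0.93 (SE 0.12, adjusted p = 5.18e-05). For all 3 genes the erythroid value exceeded that outside the gate in every library. Among cells with at least 3 other-mitosis UMIs, where the erythroid gate had 9 members higher and 17 lower (28.1% and 32.3% of genes), these 3 were still higher, at 0.83, 0.65 and 0.64. That split changed the count of called members in other gates too: the lymphoid gate then had 20 higher and 1 lower (12.3% and 16.9% of genes), the granulocyte gate 1 and 26 (19.6% and 20%), and the Flt3 gate none and 18 (3.63% and 9.55%).

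**Figure D4:**
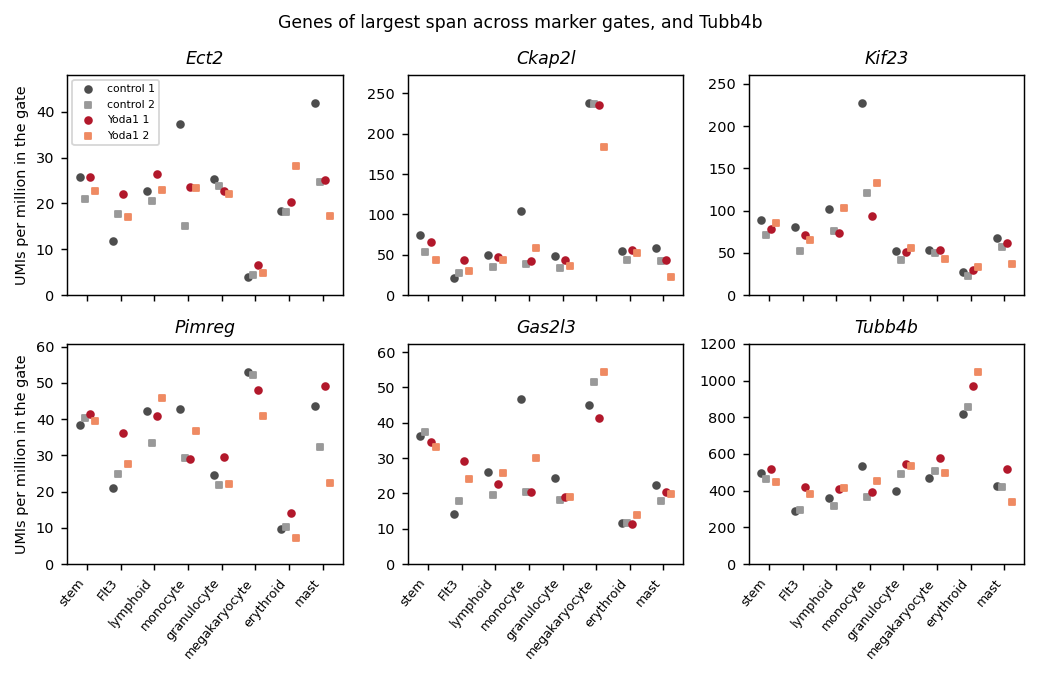
CPM of 6 members in each marker gate, 1 point per library, each panel on its own linear axis from 0. Ect2 is at 4.0 to 6.62 and Ckap2l at 183 to 238 in the megakaryocyte gate, and Pimreg, Kif23 and Gas2l3 are lowest and Tubb4b highest in the erythroid gate.

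Kif23 ran differently in the monocyte gate, where it measured 227, 121, 94.1 and 132 CPM against 63.7, 58.3, 61.6 and 80.3 outside, a log2 change of 1.18 (SE 0.15, adjusted p = 1.97e-09). It was also the highest member of the lymphoid gate, at 0.37 (SE 0.08, adjusted p = 0.00519), where Gtse1 was lowest, at -0.57 (SE 0.15, adjusted p = 0.0126). The Gtse1 call was lost with gates on thinned counts (-0.25, adjusted p = 0.159) and without control 1, control 2 or Yoda1 1 (-0.54 to -0.50, adjusted p = 0.0589 to 0.0880). Ndc80, the microtubule-binding kinetochore subunit, rose by 0.70 in the monocyte gate (SE 0.16, adjusted p = 4.17e-04), but its call was lost with gates on thinned counts (0.27, adjusted p = 0.0798) and without control 1 (0.52, adjusted p = 0.0621). The lowest member of the monocyte gate, Cks2, did not pass (-0.22, adjusted p = 0.330) and was at 0.02 with thinned gates. In the granulocyte gate Cks1b was highest, at 0.54 (SE 0.10, adjusted p = 6.55e-04), and Psrc1, a spindle protein gene, lowest, at -0.60 (SE 0.10, adjusted p = 2.97e-04). In the mast cell gate Aurkb was lowest (-0.62, SE 0.12, adjusted p = 1.01e-04), but it was at -0.07 with gates on thinned counts (adjusted p = 0.704). Kif2c was highest there without passing (0.32, adjusted p = 0.174), and passed without control 1 (0.57, adjusted p = 0.0192). Kif23 had the third largest span across gates, 2.36 between its lowest and highest log2 change, after Ckap2l at 3.19 and Ect2 at 2.61.

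The Flt3 gate, which holds multipotent and early lymphoid-primed cells without Dntt or Il7r, had its lowest member in Ube2c, at 117, 86.9, 176 and 106 CPM against 308, 291, 295 and 235 outside (log2 change -1.36, SE 0.10, adjusted p = 1.28e-19). Kif23 was its least changed member (-0.13, adjusted p = 0.427) and was at 0.06 with thinned gates. Median depth in this gate was 6530 to 7269 UMIs per cell. With gates on thinned counts, where median depth was 6866 to 7897, Ube2c was lower by a log2 change of -0.66 and the median member by -0.34. Of the 43 S phase genes 16 fell in this gate and none rose, with a median of -0.23.

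In the stem gate 33 members fell and 5 rose (24.6% and 20.7% of the 17463 genes tested), with a median of -0.19 against 0.01 over all genes. The lowest was Cks2, at 346, 349, 298 and 257 CPM against 396, 438, 375 and 319 outside, lower in every library (log2 change -0.47, SE 0.04, adjusted p = 4.39e-06). By role, 5 of 6 genes that start mitosis fell, 4 of 5 kinases, 5 of 8 kinetochore genes, 10 of 18 motor and spindle genes, 6 of 10 chromosome genes, 2 of 3 exit genes and 1 of 2 cytokinesis genes. The genes that rose were Gas2l3 (0.29, SE 0.05, adjusted p = 7.23e-04), Psrc1 (0.23, SE 0.06, adjusted p = 0.00510), Kif23, Hjurp and G2e3. With stem cells gated on thinned counts, the shallower cells described above, none rose and 46 fell (15% and 22.1% of genes), with a median of -0.69. Gas2l3 and Psrc1 were then at -0.15 (adjusted p = 0.286) and -0.13 (adjusted p = 0.455). Among cells with at least 3 other-mitosis UMIs 9 rose and 19 fell (21.5% and 24.9%). Of 43 S phase genes 34 fell in the stem gate and none rose, and of the 50 other mitosis genes 29 fell and none rose.

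Yoda1 changed no member past the test over all kept cells. By edgeR, 0 of 52 members and 0 of 18182 genes (0.0%) passed, and no member reached an unadjusted p under 0.05. DESeq2 and limma-voom called no member as well, and DESeq2 called 0.0275% of genes, all lower. The median log2 change of the members was -0.05 against 0.01 over all genes, and 41 of 52 were below 0. The extremes were Pimreg, at 30.5, 32.8, 34.8 and 37.6 CPM (log2 change 0.15, SE 0.16, adjusted p = 1.0), and Cks2 (-0.33, SE 0.24, adjusted p = 1.0). A difference of that size was not detectable with 2 libraries per group. Of the comparison lists, the S phase genes Rfc2, Pcna and Mcm6 measured 267 to 274, 219 to 254 and 185 to 262 CPM, and the other mitosis genes Smc2, Spc24 and Incenp 157 to 187, 125 to 157 and 84.2 to 129 CPM, and no gene of either list passed.

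The summed level gave the same picture, with a difference of -1.5 per 10000 UMIs (control 75.2 ± 3.51, Yoda1 73.7 ± 8.54, SD, n = 2; exact permutation p = 1.0, where 2 against 2 libraries cannot go below 0.333). This difference changed sign with the weight given to each gate. With the gates, and the cells of several or no gates, weighted by their mean share of UMIs over the 4 libraries, the values were 75.4, 71.4, 78.6 and 79.4, and the treated libraries then lay above both controls by 5.60 on average (exact p = 0.333). Leaving out Yoda1 2 gave a difference of 4.53 and leaving out Yoda1 1 one of -7.54.

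Within 4 gates both treated libraries lay above both controls. The erythroid values given above averaged 81.2 ± 0.392 in control and 95.4 ± 6.12 in Yoda1 (SD, n = 2), and those of the Flt3 gate 47.0 ± 3.21 and 59.1 ± 9.21. The lymphoid gate had 66.8 and 54.9 in the controls and 69.2 and 70.6 after Yoda1, and the granulocyte gate 68.5 and 66.6 against 74.4 and 71.7. Each of these has the exact permutation p of 0.333 that separated groups of 2 give (0.749 adjusted over 9 comparisons). The stem, monocyte, megakaryocyte and mast cell gates overlapped. With gates on thinned counts the erythroid gate (80.9 and 85.4 against 89.8 and 100.7) and the granulocyte gate (71.2 and 66.1 against 75.7 and 78.3) still separated, whereas the lymphoid gate (81.6 and 66.1 against 77.3 and 76.5) and the Flt3 gate (54.7 and 64.9 against 74.6 and 55.8) overlapped. In the same 4 gates the 50 other mitosis genes separated in the same direction, at 21.7 and 20.5 against 24.1 and 26.8 per 10000 in the erythroid gate, and S phase genes did so in the Flt3, granulocyte and erythroid gates and also in the megakaryocyte gate. The erythroid gate of Yoda1 2 held only 103 cells.

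Gene by gene, 37 of 52 members lay above both controls in the erythroid gate, against 11.8% of the genes tested there, 28 in the Flt3 gate (13.1%), 22 in the lymphoid gate (10.6%) and 17 in the granulocyte gate (8.99%). None, 2, none and 1 lay below, against 20.8%, 17.2%, 20.7% and 16.8% of genes. None passed the test in any gate by edgeR, DESeq2 or limma-voom. By edgeR 0.0% of the genes of the erythroid, lymphoid and granulocyte gates and 0.0379% of those of the Flt3 gate passed. By DESeq2 the largest share in these gates was 0.124% of genes, lower in the lymphoid gate. At an unadjusted p under 0.05, 20 members were higher in the erythroid gate (1.57% of genes), 15 in the Flt3 gate (1.35%), 7 in the lymphoid gate (1.1%) and none in the granulocyte gate. Median log2 changes of the members were 0.28, 0.35, 0.25 and 0.14 in these gates, and those of all genes were between -0.0037 and -0.0013. Members share cells and libraries, so these counts are not counts of independent genes. The treatment effect was not tested for a difference between these gates and the rest.

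Hmmr had the largest difference in the erythroid gate, at 80.9, 81.4, 103 and 138 CPM (log2 change 0.58, SE 0.14, adjusted p = 1.0), and Cdca2, a chromatin phosphatase regulator, the smallest, at 35.8, 34.6, 32.3 and 36.3 CPM (-0.03). Mki67, the proliferation marker that coats mitotic chromosomes, measured 329, 319, 404 and 470 CPM there (0.46, SE 0.12, adjusted p = 1.0). With the replicate number as a block Hmmr (adjusted p = 0.0120) and Mki67 (adjusted p = 0.0158) passed, as 0.362% of genes did upward, and without Yoda1 1 Hmmr and Birc5 passed (0.581%). With no filter on low counts Hmmr passed in the erythroid gate (adjusted p = 0.0279, 0.329% of genes higher) and Birc5 in the Flt3 gate (adjusted p = 0.00201, 0.146%). In the Flt3 gate Birc5 measured 84.0, 89.5, 169 and 134 CPM (0.82, SE 0.17, adjusted p = 0.577) and Psrc1 16.7, 13.7, 11.9 and 12.3 CPM (-0.30). Birc5 was higher in both treated libraries and Psrc1 lower, and with gates on thinned counts the Birc5 change was 0.16. Without Yoda1 2, 6 members passed there, all higher: Birc5, Top2a, Ube2c, Mki67, Nusap1 and Tpx2 (0.959% of genes were then higher). In fits with 1 treated library left, that library is assumed to vary like the 2 controls, which alone supply the spread.

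In the lymphoid gate the extremes were Aurkb, at 53.2, 47.7, 67.7 and 66.2 CPM (log2 change 0.46), and Gtse1, at 7.0, 4.84, 5.27 and 5.97 CPM (0.02). The granulocyte gate had Aurka highest, at 40.3, 40.7, 49.2 and 48.9 CPM (0.31), and the condensin gene Ncapd2 lowest, at 73.7, 44.1, 58.2 and 44.0 CPM (-0.13). In the megakaryocyte gate Ect2 was highest (0.51) and Pimreg lowest, at 52.9, 52.1, 47.9 and 40.8 CPM (-0.21), and Ect2 was at -0.45 with thinned gates. None of these passed, with adjusted p = 1.0 for each by edgeR. In the monocyte gate Cdca3 measured 108, 98.5, 95.9 and 144 CPM (0.26) and Nek2 24.0, 16.9, 11.1 and 10.0 CPM (-0.85). Without Yoda1 2, 4 members passed in that gate, all lower: Cenpa, Ube2c, Cenpf and Cdc20 (3.03% of genes were then lower), in a fit whose spread comes from the 2 controls alone. In the mast cell gate Cdca2 measured 30.7, 28.6, 44.4 and 44.5 CPM (0.63) and Ect2 41.8, 24.8, 25.0 and 17.3 CPM (-0.50), and without Yoda1 1, 1 member, Cenpf, was lower (0.235% of genes), again with the spread of the controls alone.

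**Figure D5:**
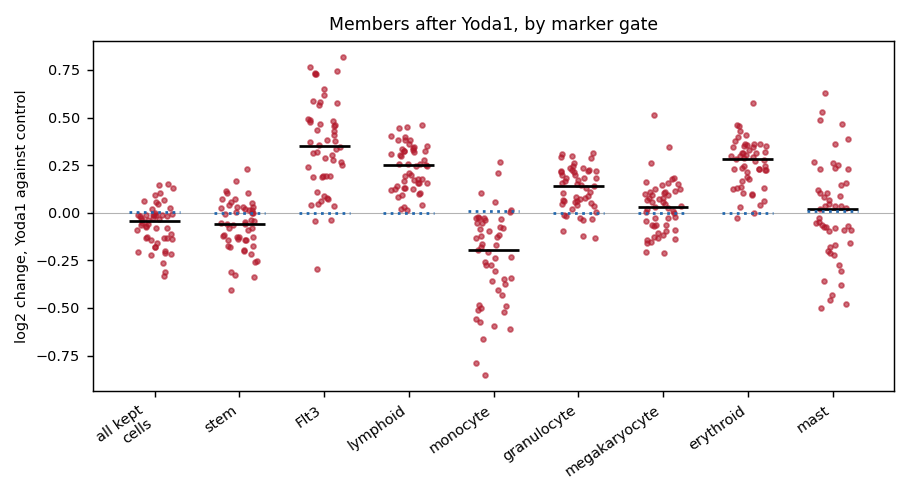
Log2 change of each member between Yoda1 and control (edgeR, 2 libraries per group) over all kept cells and within each marker gate, 1 point per gene, with a solid line at the members' median and a dotted line at the median of all genes tested. Medians are -0.05 over all cells, 0.35 in the Flt3 gate and 0.28 in the erythroid gate, and no point passed the test.

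The stem gate did not differ detectably after Yoda1. Members made up 73.5 ± 8.84 of 10000 UMIs in control and 71.2 ± 9.42 in Yoda1 (SD, n = 2; exact permutation p = 0.667). None of the 52 passed by edgeR (0.0% of genes), DESeq2 or limma-voom, and none had an unadjusted p under 0.05. The extremes were Nek2, at 12.8, 12.5, 18.0 and 12.2 CPM (log2 change 0.23), and Cenpa, at 204, 177, 167 and 123 CPM (-0.41, SE 0.21, adjusted p = 1.0), lower in both treated libraries. Here 4 members lay above and 3 below both controls, against 12.8% and 11.8% of the genes tested. The interaction of treatment with the stem gate called no member, with none at an unadjusted p under 0.05, and 0.063% of genes passed.

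Over all cells, shares of cells with many member UMIs overlapped between control and Yoda1. After thinning to 3000 UMIs, which left out 226, 252, 154 and 446 shallower cells, 39.2%, 30.9%, 39.6% and 24.8% of cells had at least 20 member UMIs (95% Clopper-Pearson intervals 38.1 to 40.3, 29.9 to 32.0, 38.6 to 40.6 and 23.9 to 25.7, which cover counting error only). Without thinning the shares were 73.4%, 59.7%, 69.4% and 46.4%. At 40 or more UMIs they were 13.0%, 12.4%, 14.2% and 11.9%, a narrower spread between libraries. At 10 or more they were 64.9%, 50.4%, 62.7% and 39.9%. Control and Yoda1 overlapped at each of these limits over all cells. Within 4 gates the shares with at least 20 member UMIs separated, each with the exact p of 0.333 that 2 against 2 libraries give. They were 48.7% and 43.0% in control against 59.1% and 61.2% after Yoda1 in the erythroid gate, and 40.6% and 38.2% against 46.9% and 50.4% in the granulocyte gate. The lymphoid gate had 22.5% and 16.7% against 27.0% and 26%, and the Flt3 gate 16.4% and 14.2% against 24.4% and 17.5%. Of these gates only the erythroid gate also separated at both 10 and 40 or more UMIs. The granulocyte gate separated at 10 or more but overlapped at 40 or more (7.845% and 5.52% against 7.95% and 5.11%). The lymphoid and Flt3 gates separated at 40 or more. At 10 or more they overlapped, with 41.3% and 28.5% against 44.4% and 39.96% (lymphoid) and 33.8% and 29.2% against 41.2% and 32.2% (Flt3). The groups overlapped in the monocyte, megakaryocyte and mast cell gates and in the stem gate. In the stem gate 39.7%, 24.5%, 32.2% and 22.5% of cells had at least 20 member UMIs, and 54.2%, 36.9%, 48.8% and 35% had at least 3 UMIs of the other mitosis genes (over all cells 59.0%, 46.3%, 58.9% and 37.0%).

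Cells with fewer than 3 UMIs of the other mitosis genes were compared apart from the rest, a split chosen after the data were seen. In them members made up 30.7, 25.4, 29.0 and 21.8 of 10000 UMIs. No member passed by edgeR (0.0% of genes) or DESeq2 and none had an unadjusted p under 0.05 by edgeR. Kif23 was the highest, at 18.2, 19.3, 19.7 and 41.7 CPM (log2 change 0.65, SE 0.30, adjusted p = 1.0), and Cks2 the lowest, at 207, 199.8, 167 and 103 CPM (-0.61, SE 0.28, adjusted p = 1.0). Yoda1 2 had the highest Kif23 value and the lowest Cks2 value. Without Yoda1 1, 17 members passed lower and Kif23 higher (2.92% and 2.16% of genes). That fit sets Yoda1 2, the library that stood apart, against 2 controls that alone supply the spread. In cells with at least 3 such UMIs no member passed by edgeR (0.0% of genes) or DESeq2 and none had an unadjusted p under 0.05, and the extremes were Pimreg at 0.29 and Cenpa at -0.22.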

How the data were processed

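The deposited files hold whole-number UMI counts per gene and cell, made with Cell Ranger 7.1.0 per the file headers; Seurat 4.3.0 and GRCm38 (mm10) are named in the submitters' processing notes, and the annotation release and any use of strand or intronic reads are not given in the sources used here. The 52 members and the comparison lists were chosen with earlier results of these data known. UMIs of the kept cells were summed per library and gate. Sums were tested in R 4.3.3 with edgeR 4.0.16 (TMM normalization, filterByExpr, quasi-likelihood test, Benjamini-Hochberg adjusted p under 0.05 over all genes). SE is the absolute log2 change over the square root of F. DESeq2 1.42.0 and limma 3.58.1 (limma-voom) were alternatives. Gate comparisons had the library as a block. Single values per library were tested with exact permutation tests. Scripts were tested on simulated data. Scrublet (scanpy 1.11.5) marked 575, 1, 0 and 0 cells and so had not worked, and no doublets were removed in the main analysis. Other alternatives were gates on thinned counts, other cell filters, no filter on low counts and leaving out each library. Those on cells split by other mitosis genes, and gates or cell means on thinned counts for the summed level against cells outside a gate, were chosen after seeing the data. Library values are given for the 3 highest members per role and the extremes of each fit, and further genes were named after their values were seen.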

Additional observations from a re-analysis of the deposited data

Results flagged for a closer look

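After Yoda1, 18 of the 52 members lay above both controls in both treated libraries in at least 1 gate and below both in at least 1 other. Of the 51 members tested in every gate this is 35.3%, and of all 7566 genes tested in every gate 26% did so, and nothing is read from the count. Those named among the results are given here as log2 changes. The difference between gates was not tested for any of them, and none of the changes passed the test within its gate.

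Aurka was above in the lymphoid (0.45), granulocyte (0.31) and erythroid (0.36) gates and below in the monocyte (-0.51) and mast cell (-0.38) gates. Aurkb was above in the Flt3 (0.19), lymphoid (0.46), granulocyte (0.30) and erythroid (0.38) gates and below in the mast cell gate (-0.48). Nek2 was above in the granulocyte (0.22) and erythroid (0.23) gates and below in the monocyte gate (-0.85).

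Cenpa was above in the lymphoid (0.16) and erythroid (0.23) gates and below in the stem gate (-0.41). Birc5 was above in the Flt3 (0.82), lymphoid (0.40), granulocyte (0.22) and erythroid (0.41) gates and below in the mast cell gate (-0.0562). Psrc1 was above in the stem gate (0.0565) and below in the Flt3 gate (-0.30).

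Ect2 was above in the lymphoid (0.25), megakaryocyte (0.51) and erythroid (0.36) gates and below in the granulocyte gate (-0.0937). Pimreg was above in the Flt3 gate (0.46) and below in the megakaryocyte gate (-0.21).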

How the results depend on the processing

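The replicate numbers are in the labels but do not say that they mark a shared mouse or day. Over 18182 genes the difference between replicates 1 and 2 correlated between control and Yoda1 with 0.4536, but 2 pairs leave the pairing undecided and the numbers were not used as pairs. With the replicate block the members called higher in the erythroid gate went from 0 to 2, and no other count of members called after Yoda1 moved.

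Counts of members moved as follows. With no filter on low counts 1 was higher after Yoda1 in the erythroid gate (0.329% of genes) and 1 in the Flt3 gate (0.146%). The other counts compare a gate with the cells outside it. With no filter 33 were lower in the lymphoid gate (12.7% of genes) and 2 higher in the stem gate (9.73%). DESeq2 gave 3 higher and 3 lower in the mast cell gate (6.75% and 6.83%), 5 higher in the monocyte gate (8.06%) and 3 higher in the stem gate (14.7%), and RLE normalization 3 and 3 in the mast cell gate (8.64% and 10.2%). Gates on thinned counts gave 22 higher in the granulocyte gate, 7 and 4 in the lymphoid gate, 8 and 1 in the mast cell gate, 38 higher in the monocyte gate and 0 higher in the stem gate. Cells with at least 3 other-mitosis UMIs gave 9 and 17 in the erythroid gate, 18 lower in the Flt3 gate, 1 and 26 in the granulocyte gate, 20 and 1 in the lymphoid gate and 9 and 19 in the stem gate. The mast cell gate had too few such cells and was not run.

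Some directions reversed; the cause was not tested. With gates on thinned counts the Yoda1 change was -0.0375 for Gtse1 in the lymphoid gate, -0.0766 for Cdca3 in the monocyte gate, -0.45 for Ect2 in the megakaryocyte gate and -0.11 for Cdca2 in the mast cell gate. Against cells outside the gate it was -0.15 for Gas2l3 and -0.13 for Psrc1 in the stem gate, 0.0636 for Kif23 in the Flt3 gate (0.16 in cells with other-mitosis UMIs) and 0.0174 for Cks2 in the monocyte gate. The summed level after Yoda1 was 5.60 higher at mean gate shares, and -0.0952 in the megakaryocyte gate without Hmgb2. Against cells outside, the lymphoid gate was 1.06 higher with gates on thinned counts and the granulocyte gate 1.27 higher as the mean per thinned cell. The mast cell gate was 0.159 higher with the stricter filter, 0.147 with every barcode, 0.240 without doublet scores, 0.745 per thinned cell and 6.13 with thinned gates. The difference in the share of cells with many member UMIs was 0.370 percentage points at 40 UMIs.

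Leaving out 1 library in turn gave these ranges. For gates against cells outside, the share of all genes called in each smaller fit is not given, so nothing is read from those counts. Members called after Yoda1 ran from 0 to 2 higher in the erythroid gate, 0 to 6 higher in the Flt3 gate, 0 to 1 lower in the mast cell gate, 0 to 4 lower in the monocyte gate, and 0 to 1 higher and 0 to 17 lower in cells with fewer than 3 other-mitosis UMIs. Against cells outside, they ran from 3 to 5 lower in the erythroid gate, 7 to 17 higher in the granulocyte gate, 2 to 42 lower in the lymphoid gate, 0 to 2 higher and 2 to 12 lower in the mast cell gate, 2 to 4 lower in the megakaryocyte gate, 3 to 22 higher in the monocyte gate and 3 to 6 higher in the stem gate. Yoda1 changes ran from -0.12 to 0.54 for Nek2 in the stem gate, -0.28 to 0.29 for Gtse1, -0.0832 to 0.56 for Cdca3, -0.44 to 0.25 for Ncapd2 in the granulocyte gate and -0.0878 to 0.0628 for Cdca2 in the erythroid gate. The summed level after Yoda1 ran from -7.54 to 4.53 over all cells, -8.95 to 4.37 in the stem gate, -37.2 to 10.0 in the monocyte gate, -2.95 to 6.22 in the megakaryocyte gate and -15.6 to 8.12 in the mast cell gate, and the mast cell gate against cells outside from -1.67 to 2.24. The share with at least 20 member UMIs ran from -10.3 to 4.51 percentage points and that with at least 3 other-mitosis UMIs from -15.7 to 6.28.

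Across all alternatives, 473 of 547 values that answer a comparison kept their direction and their side of the threshold (52 moved and 22 reversed), as did 430 of 464 for single genes (17 reversed, 8 lost the call and 9 gained it). The monocyte gate held 60 to 139 cells per library and the mast cell gate 63 to 209, which limits the precision of their sums.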
